A study of Mus musculus with 2 samples.

Results

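Peroxisome proliferator-activated receptors (PPARs), CCAAT/enhancer binding proteins (C/EBPs) and fatty acid binding proteins (FABPs) were followed in lung cells sorted for retinoid fluorescence. The set held 9 genes of the 32285 in the deposited matrices, chosen by name: the receptors *Pparg*, *Ppara* and *Ppard*, the coactivator gene *Ppargc1a*, the C/EBP genes *Cebpa* and *Cebpb*, and the FABP genes *Fabp1*, *Fabp4* and *Fabp5*. Live lung cells of wild type male C57BL/6 mice aged 3 months were sorted by their emission at 455 nm, and the UV-positive cells of 2 libraries were sequenced as single cells. There was 1 condition, so the comparisons below are between cell groups within the libraries, and no treated or UV-negative cells were analysed here. How many mice went into a library is not given in the sources used here. The p-values weigh differences between groups only against how far these varied between the 2 libraries, with the library as a block.

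PPARs are nuclear receptors that pair with retinoid X receptors and are activated by fatty acids and their derivatives. C/EBPs are leucine zipper transcription factors, which act together with PPARγ in the differentiation of adipocytes, and FABPs are small cytosolic proteins that carry fatty acids. In the lung, C/EBPα is known for its part in the maturation of alveolar type 2 (AT2) cells, and PPARγ for its part in alveolar macrophages and in lipid-laden interstitial fibroblasts.

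Barcodes with at least 200 genes and at most 10% mitochondrial counts were placed by summed unique molecular identifiers (UMIs) of 3 genes per class, with at least 3 UMIs required and barcodes over more than 1 gate left out of the 5 groups. Stromal cells (*Col1a2*, *Mfap4*, *Pdgfra*) without a *Dcn* UMI were called alveolar fibroblasts (5805 cells in library 1 and 5545 in library 2), and those with at least 3 *Dcn* UMIs adventitial fibroblasts (1017 and 998). Endothelial cells (*Cdh5*, *Pecam1*, *Egfl7*) numbered 56 and 360, epithelial cells (*Epcam*, *Cdh1*, *Lamp3*) 930 and 101, and immune cells (*Ptprc*, *Laptm5*, *Cd52*) 266 and 334. Markers that the gates did not use were highest in their own group in 5 of 5 cases per library, except 4 of 5 for adventitial fibroblasts. The fibroblast groups were only partly separated. Summed adventitial markers stood at 2806 and 1955 CPM in adventitial and 1297 and 1418 CPM in alveolar fibroblasts. Summed alveolar markers stood at 5160 and 5757 CPM in alveolar and 2442 and 3676 CPM in adventitial fibroblasts. By *Abca3*, *Slc34a2* and *Etv5*, 929 of 930 and 96 of 101 epithelial cells carried at least 3 AT2 UMIs.

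Library 2 was deeper, with a median of 7577.5 UMIs per retained barcode against 4480 in library 1. It also held more barcodes over more than 1 gate, 1640 (16.4%) against 420 (4.36%), and 23 barcode sequences occurred in both libraries. The endothelial group of library 1 was so shallow that 3 UMIs amounted to 25.1 CPM (UMIs of a gene per 1000000 UMIs of its group), so low genes were not detectable there.

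The sequences upstream of 4 starts are shown, chosen after the values were seen, since these genes had unlike distributions over the cell groups. They were searched for CCAAT, for TTGCNNAA (the form of a C/EBP site), for AGGTCA (the core that nuclear receptors bind) and for TATAAA (the TATA box). The RefSeq promoter table of build GRCm38.p6 held 7 of the 9 genes, and not *Fabp4* or *Fabp5*. Each run is the 250 bases before an annotated start, 5′ to 3′ on the plus strand, and capitals mark a match on either strand. No match overlapped another.
Cebpa, chr7:35119043-35119292: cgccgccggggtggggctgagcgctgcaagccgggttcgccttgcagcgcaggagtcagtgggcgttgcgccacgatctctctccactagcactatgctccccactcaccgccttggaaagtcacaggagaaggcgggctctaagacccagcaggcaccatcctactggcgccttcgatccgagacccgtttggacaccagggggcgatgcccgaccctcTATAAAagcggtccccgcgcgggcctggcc
Cebpb, chr2:167688665-167688914: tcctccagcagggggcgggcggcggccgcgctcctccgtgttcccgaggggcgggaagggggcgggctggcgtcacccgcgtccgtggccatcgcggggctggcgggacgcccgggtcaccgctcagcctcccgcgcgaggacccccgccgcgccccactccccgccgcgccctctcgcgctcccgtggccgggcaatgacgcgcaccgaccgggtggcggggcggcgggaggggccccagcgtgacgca
Fabp1, chr6:71199629-71199878: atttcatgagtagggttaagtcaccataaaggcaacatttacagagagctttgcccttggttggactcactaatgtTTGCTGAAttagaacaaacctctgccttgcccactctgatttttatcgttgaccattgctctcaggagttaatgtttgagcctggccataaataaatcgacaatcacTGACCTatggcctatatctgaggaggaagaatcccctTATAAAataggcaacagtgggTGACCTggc
Pparg, the third of 3 starts, chr6:115421816-115422065: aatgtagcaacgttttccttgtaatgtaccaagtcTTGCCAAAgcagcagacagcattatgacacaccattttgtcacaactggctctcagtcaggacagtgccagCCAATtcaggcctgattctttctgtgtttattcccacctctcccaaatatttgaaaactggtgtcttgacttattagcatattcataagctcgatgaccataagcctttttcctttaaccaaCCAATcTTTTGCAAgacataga
The *Cebpa* run held 1 TATAAA and the *Cebpb* run none of the 4 motifs, with a GC content of 66.4% and 81.6%. The *Fabp1* run held 2 AGGTCA, 1 TTGCNNAA and 1 TATAAA, and the third *Pparg* start 2 CCAAT and 2 TTGCNNAA. The other *Pparg* starts, not shown, held no TTGCNNAA and 1 AGGTCA each, and the second also 1 CCAAT and 1 TATAAA. Of 32851 upstream runs of the same length, 33.8% held CCAAT, 9.56% TTGCNNAA, 14.0% AGGTCA and 12.4% TATAAA. Reads from the 3′ end of transcripts do not show which *Pparg* start was used.

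The 9 genes fell into distinct patterns over the cell groups. *Cebpb* was abundant in fibroblasts and immune cells, *Cebpa* and *Fabp5* in epithelial cells, and *Fabp4* in monocyte-like cells. *Fabp1* was found almost wholly in barcodes with alveolar macrophage transcripts. The PPAR genes and *Ppargc1a* had low counts. *Pparg* was the 1 member of 9 called between the fibroblast groups, where 8.71% of all genes were called, and this call was lost under some alternatives. Values are given as CPM of the UMIs summed per group and library, first for library 1 and then for library 2. Since the counts come from 3′ ends, levels are compared between groups and not between genes.

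**Figure D1:**
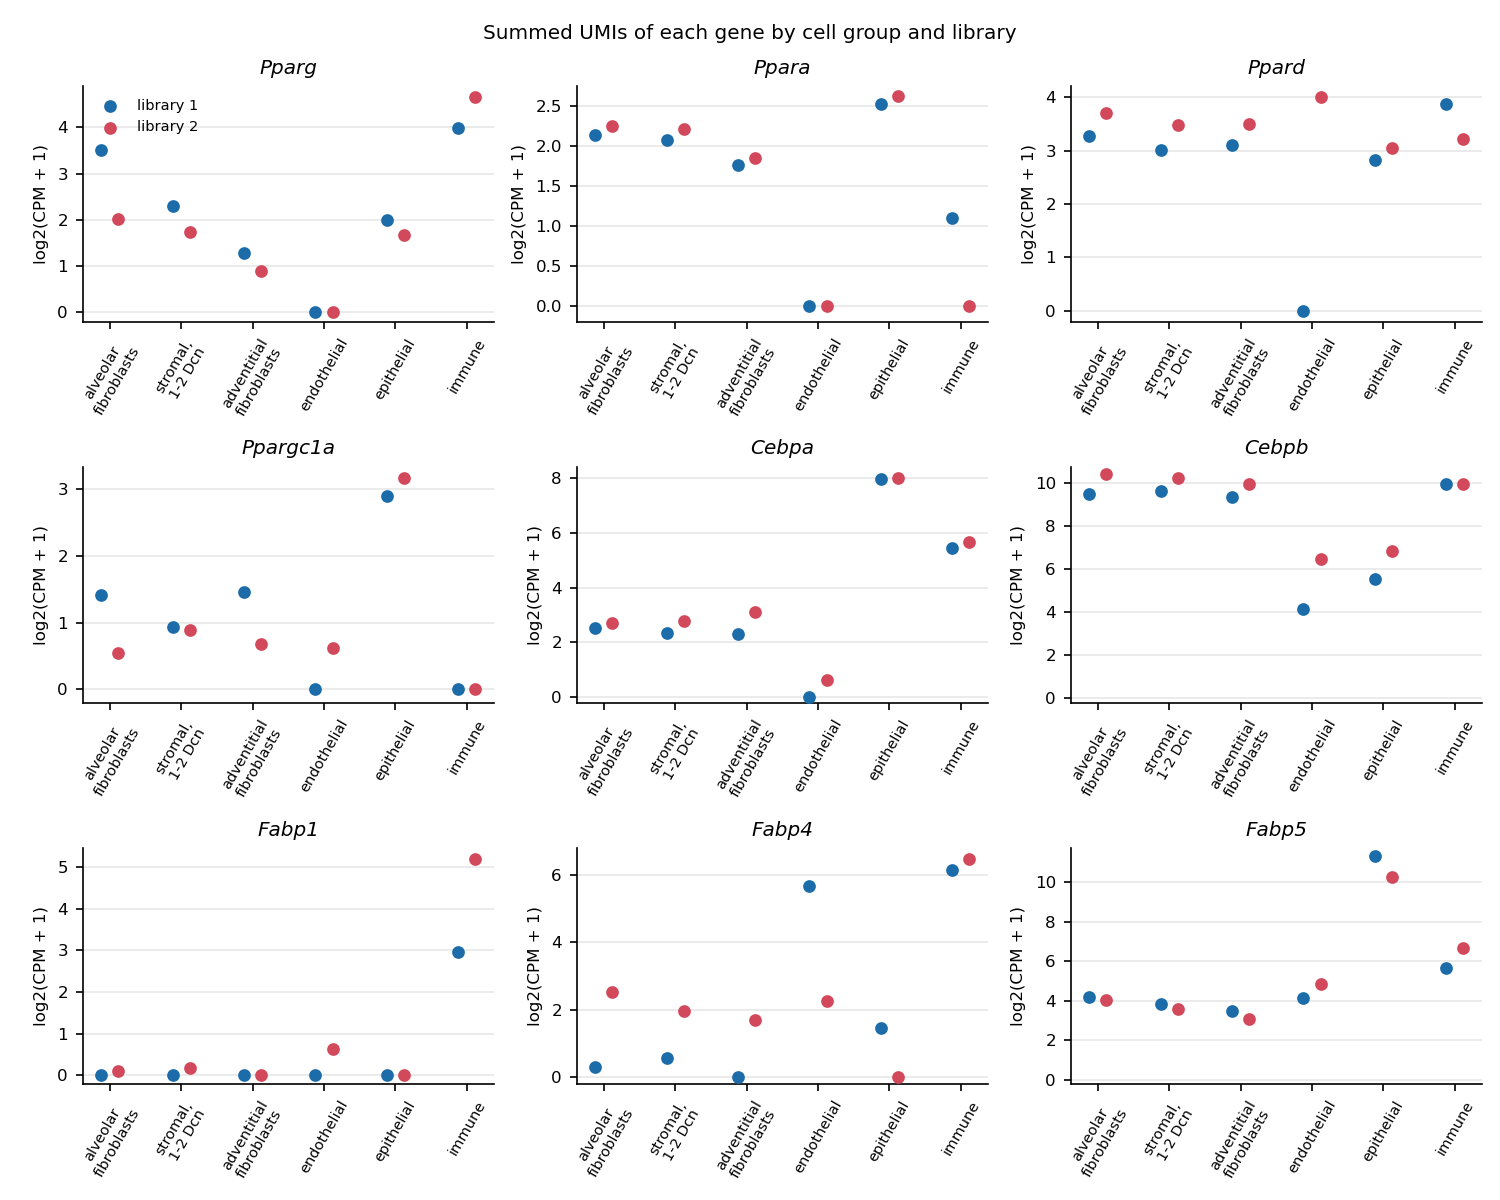
Each panel plots 1 gene, with the cell group on the x axis and log2(CPM + 1) of summed UMIs on the y axis, and each point is 1 library. *Cebpa* and *Fabp5* peak in epithelial cells in both libraries, *Fabp1* and *Fabp4* in immune cells, and *Pparg* falls from alveolar fibroblasts (10.5 and 3.04 CPM) over cells with 1 to 2 *Dcn* UMIs to adventitial fibroblasts (1.42 and 0.863 CPM).

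*Pparg* (chr6:115360951-115490399, GRCm38), the receptor that drives adipocyte differentiation, stood at 10.5 and 3.04 CPM in alveolar fibroblasts (245 and 118 UMIs). Adventitial fibroblasts had 1.42 and 0.863 CPM (9 and 10 UMIs), and the stromal cells in between, with 1 to 2 *Dcn* UMIs, 3.89 and 2.30 CPM. Alveolar fibroblasts were higher in both libraries, by 7.35-fold and 3.52-fold. The fitted log2 fold change was 2.37 ± 0.50 (SE; adjusted p = 0.0049, edgeR quasi-likelihood test). It was the 1 call among the 9 members between the fibroblast groups, where 8.71% of 13326 genes were called. The call was lost with DESeq2 (adjusted p = 0.098), without the library block (0.087) and when barcodes over more than 1 gate were added (0.098), while the log2 fold change stayed between 2.36 and 2.58.

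*Pparg* was also found in immune cells, at 14.8 and 24.3 CPM (13 and 44 UMIs), and in epithelial cells at 3.01 and 2.20 CPM. No UMI was found in 56 and 360 endothelial cells, where 3 UMIs would amount to 25.1 and 1.62 CPM. Immune cells were above alveolar fibroblasts by 1.42-fold in library 1 and 7.98-fold in library 2, so the size of that difference depended on the library. Its fitted log2 fold change, alveolar fibroblasts minus immune cells, was -2.18 ± 0.45 (adjusted p = 0.00056), a call that was lost when barcodes over more than 1 gate were added (-0.96, adjusted p = 0.17). Such barcodes entered every class whose gate they passed, so both sums could share them, which narrows a difference. The value in alveolar fibroblasts was itself 3.44-fold higher in library 1 than in library 2.

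*Ppara* (chr15:85734983-85802819), which controls fatty acid oxidation in liver and muscle, was low in every group. Epithelial cells had 4.74 and 5.13 CPM, alveolar fibroblasts 3.37 and 3.74, and adventitial fibroblasts 2.37 and 2.59, an order that was the same in both libraries. The difference between adventitial fibroblasts and epithelial cells passed the test (log2 fold change -1.52 ± 0.47, adjusted p = 0.012), a call that was lost without the library block (adjusted p = 0.057) and when barcodes over more than 1 gate were added (0.064). That between alveolar fibroblasts and epithelial cells did not pass (-1.02 ± 0.42, adjusted p = 0.0503). Immune cells held 1 UMI in library 1 and none in library 2, and endothelial cells none in either. Of the 5 *Ppara* calls beyond the adventitial to epithelial one, all were against these near-empty groups. In library 2, epithelial cells were at least 3.16-fold above endothelial and at least 3.1-fold above immune cells, taking 3 UMIs per library as the floor.

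*Ppard* (chr17:28232700-28301474), the most widely used of the receptors, showed no called difference in any of the 10 pairs of groups. Its level was 8.66 and 11.99 CPM in alveolar fibroblasts, 7.58 and 10.4 in adventitial fibroblasts, 6.13 and 7.32 in epithelial cells and 13.7 and 8.27 in immune cells. Endothelial cells had 0 and 15.2 CPM, the 0 being under the limit of that group. The order of the groups differed between the libraries.

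*Ppargc1a* (chr5:51454250-51567726, minus strand), whose product coactivates PPARs and promotes mitochondrial biogenesis, was highest in epithelial cells with 6.47 and 8.06 CPM (56 and 11 UMIs). Alveolar fibroblasts had 1.66 and 0.464 CPM and adventitial fibroblasts 1.74 and 0.604 CPM. Epithelial cells were 3.89-fold and 17.4-fold above alveolar fibroblasts, with a log2 fold change of -3.27 ± 0.55 for alveolar fibroblasts minus epithelial cells (adjusted p = 9e-05). *Ppargc1a* passed the count filter only through epithelial cells, so this call is no result about it. No UMI was found in the immune group of either library, and 1 in endothelial cells of library 2.

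*Cebpa* (chr7:35119293-35121928) was measured at 251 and 257 CPM in epithelial cells, a difference of 1.02-fold between libraries. Immune cells followed with 42.2 and 49.6 CPM, and fibroblasts had 4.69 and 5.49 CPM (alveolar) and 3.95 and 7.60 CPM (adventitial). In endothelial cells 0 and 1 UMIs were found. Epithelial cells stood 53.5-fold and 46.8-fold above alveolar fibroblasts (log2 fold change -6.20 ± 0.24 for alveolar fibroblasts minus epithelial cells, adjusted p = 9.2e-13) and 5.95-fold and 5.18-fold above immune cells (2.76 ± 0.23 for epithelial minus immune cells, adjusted p = 2.2e-08). Cells with at least 2000 UMIs were thinned to 2000 UMIs and the others left out. Of the thinned cells, 38.0% and 43.6% of epithelial cells and 0.947% and 1.07% of alveolar fibroblasts held a *Cebpa* UMI. Over all cells without thinning, the shares were 86.5% and 85.1%, and 1.81% and 3.55%. The alveolar fibroblast level was 1.87% and 2.14% of the epithelial one, above the highest of the 5 epithelial markers *Sftpc*, *Sftpa1*, *Sftpb*, *Slc34a2* and *Abca3* (1.44% and 1.54%).

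*Cebpb* (chr2:167688915-167690418), an early regulator of adipogenesis that is also induced in inflammation, had another pattern. It reached 736 and 1400.3 CPM in alveolar fibroblasts, 658 and 1006 in adventitial fibroblasts and 1002 and 999 in immune cells. Epithelial cells had 45.5 and 114 CPM and endothelial cells 16.7 and 88.2 CPM. Alveolar fibroblasts exceeded epithelial cells by 16.2-fold and 12.3-fold (log2 fold change 3.27 ± 0.31, adjusted p = 6.6e-08), and in library 2, where endothelial cells held 163 UMIs, they exceeded those by 15.9-fold (4.24 ± 0.36 over both libraries, adjusted p = 3.5e-08). With the added barcodes, which could enter both sums, that log2 fold change was 1.14 and the call was lost (adjusted p = 0.19). The epithelial level was 6.19% and 8.11% of that in alveolar fibroblasts, and for the 5 alveolar fibroblast markers *Tcf21*, *Npnt*, *Limch1*, *Wnt2* and *Slc7a10* this share ranged from 0.173% to 7.07% in library 1 and from 0% to 7.61% in library 2. The fibroblast groups were not called different (0.29 ± 0.28, adjusted p = 0.68), nor were alveolar fibroblasts and immune cells (-0.30 ± 0.28, adjusted p = 0.39). Fibroblast values were 1.90-fold (alveolar) and 1.53-fold (adventitial) higher in library 2 than in library 1, whereas the immune values were nearly equal.

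*Fabp5* (chr3:10012548-10016607), the epidermal FABP, was by far highest in epithelial cells, at 2585 and 1230.4 CPM. Immune cells had 49.0 and 99.8 CPM, endothelial cells 16.7 and 28.1, alveolar fibroblasts 17.2 and 15.4 and adventitial fibroblasts 10.1 and 7.43. Epithelial cells were 150-fold and 79.8-fold above alveolar fibroblasts (log2 fold change -7.39 ± 0.41 for alveolar fibroblasts minus epithelial cells, adjusted p = 4.5e-11). The alveolar fibroblast level amounted to 0.667% and 1.25% of the epithelial level. For the same 5 epithelial markers that share ranged from 0.147% to 1.44% in library 1 and from 0.062% to 1.54% in library 2. Their median was 0.209% and 0.065%, so the *Fabp5* share lay below the highest marker but above the median one in both libraries. The immune level, at 1.90% and 8.11%, lay below the highest marker in library 1 (2.09%) and above it in library 2 (3.40%). The difference between the fibroblast groups was not called (0.89 ± 0.35, adjusted p = 0.15).

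*Fabp4* (chr3:10204088-10208576, minus strand), the FABP of adipocytes, macrophages and capillary endothelium, was highest in immune cells with 69.6 and 88.2 CPM (61 and 160 UMIs). Endothelial cells had 50.2 CPM in library 1, from 6 UMIs in 2 cells, and 3.79 CPM in library 2, from 7 UMIs in 4 of 360 cells, so the libraries did not agree on the endothelial level. In general capillary-like cells, which passed a gate of *Gpihbp1*, *Plvap* and *Aplnr*, the values were 69.8 CPM (6 UMIs) and 3.88 CPM (4 UMIs). Fibroblasts differed between libraries as well, with 0.213 and 4.69 CPM in alveolar fibroblasts (5 and 182 UMIs) and 0 and 2.25 CPM in adventitial fibroblasts. In library 2 the alveolar fibroblast level was 5.32% of the immune level, while the 5 immune markers *Tyrobp*, *Coro1a*, *Cd53*, *Fcer1g* and *Ctss* were at 0.078% to 0.191%. In library 1 it was 0.307%, beside 0.039% to 0.164% for the markers. Immune cells were above alveolar fibroblasts in both libraries, by 326-fold and 18.8-fold (log2 fold change -5.47 ± 0.68 for alveolar fibroblasts minus immune cells, adjusted p = 2.4e-06). The call between endothelial and immune cells (-4.36 ± 1.04, adjusted p = 0.0029) was lost with DESeq2 (0.56), without the library block (0.093) and with the added barcodes (0.13).

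*Fabp1* (chr6:71199827-71205023), the liver FABP, was near 0 outside immune cells. Immune cells had 6.84 CPM in library 1, from 6 UMIs in 1 cell, and 35.9 CPM in library 2, from 65 UMIs in 10 of 334 cells. The other 4 groups held no UMI in library 1, and in library 2 alveolar fibroblasts held 3 and endothelial cells 1. Alveolar macrophage transcripts marked the barcodes that carried it. Barcodes with at least 3 UMIs of *Ear1*, *Plet1* and *Marco* numbered 3 in library 1 and 80 in library 2, and they held 6 of 8 and 555 of 564 *Fabp1* UMIs. In library 2, 52 of these 80 barcodes (65.0%, exact 95% binomial interval 53.5% to 75.3%) had a *Fabp1* UMI, against 9 of the 9908 others (0.0908%), at median depths of 17352 and 7530 UMIs. The interval covers counting error only. Of the 80 barcodes, 68 passed more than 1 class gate and 11 were in the immune group, so most *Fabp1* UMIs lay outside the 5 groups.

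The counts of called members stand below beside the share of all tested genes called in the same pair. Between alveolar fibroblasts and endothelial cells 4 of 9 members were called, where 33.0% of all genes were; between alveolar fibroblasts and epithelial cells 4, at 51.1%; and between alveolar fibroblasts and immune cells 6, at 52.5%. For adventitial fibroblasts the counts were 4 against endothelial cells, at 33.2%, 5 against epithelial cells, at 48.2%, and 5 against immune cells, at 50.8%. Endothelial and epithelial cells differed in 5 members, at 40.4%, and endothelial and immune cells in 6, at 36.1%. The highest count was 8 of 9 between epithelial and immune cells, at 48.0%. There *Cebpa*, *Fabp5*, *Ppara* and *Ppargc1a* were higher in epithelial cells, and *Cebpb*, *Fabp1*, *Fabp4* and *Pparg* in immune cells. Of these calls, that of *Fabp1* was lost with DESeq2 (adjusted p = 0.17) and with the added barcodes (0.27), and that of *Pparg* with the added barcodes (0.051). *Ppargc1a* passed the count filter only through epithelial cells and *Fabp1* only through immune cells. Their calls against those groups, in this and the other pairs, are counted above but are no result about them.

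**Figure D2:**
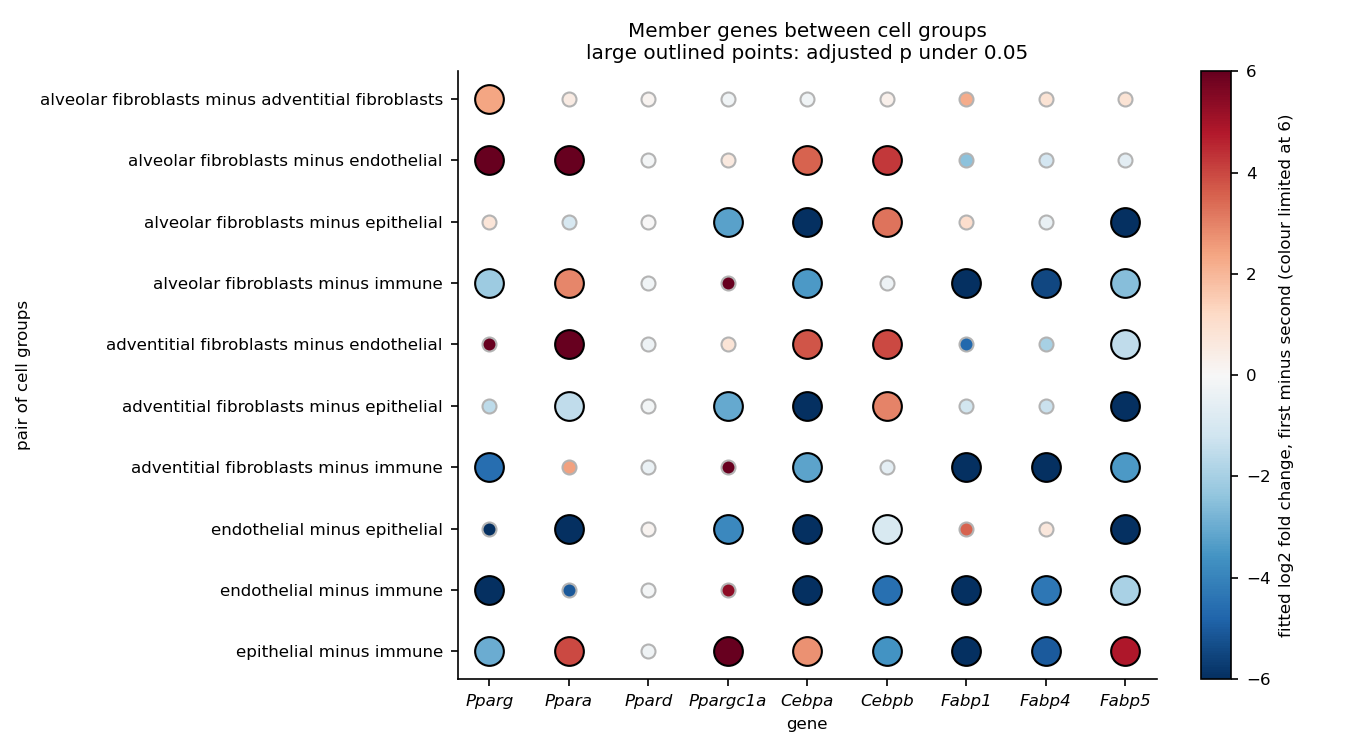
Each column is a gene and each row a pair of cell groups; colour gives the fitted log2 fold change (first minus second, limited at 6), and large outlined points passed an adjusted p of 0.05. *Ppard* has no outlined point in any of the 10 pairs, *Pparg* alone is outlined between the fibroblast groups, and 8 of 9 genes are outlined between epithelial and immune cells. *Ppargc1a* passed the count filter only through epithelial cells and *Fabp1* only through immune cells, so their outlined points are no result about them. Dark colours against groups without UMIs depend on the prior count and are not bounds.

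Immune cells were divided further by gates of 3 genes each, and 3 finer groups had at least 20 cells in both libraries. Monocyte-like cells (*Ifitm6*, *Gngt2*, *Treml4*) numbered 76 and 56, neutrophil-like cells (*Retnlg*, *Csf3r*, *Cxcr2*) 51 and 24, and B cell-like cells (*Cd79a*, *Cd79b*, *Ms4a1*) 26 and 58. The test covered 4 members there, *Cebpb*, *Fabp4*, *Fabp5* and *Pparg*. Of these, 2 were called between monocyte-like and neutrophil-like cells, where 18.4% of 6898 genes were, 3 between monocyte-like and B cell-like cells, at 17.1%, and 2 between neutrophil-like and B cell-like cells, at 22.2%. *Fabp4* is among those called in the first and the second pair, but it passed the count filter only through monocyte-like cells, so these calls are no result about it.

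The immune *Fabp4* UMIs lay mostly in monocyte-like cells. They held 60 of the 61 immune *Fabp4* UMIs in library 1 and 134 of 160 in library 2, that is 209 and 424 CPM. A *Fabp4* UMI was found in 23 of 76 (30.3%) and 38 of 56 (67.9%) of these cells, at median depths of 3674.5 and 5012.5 UMIs. Neutrophil-like and B cell-like cells had none in either library, at median depths of 1494 and 2264 UMIs for neutrophil-like cells. Against the floor of 3 UMIs per library, monocyte-like cells were at least 5.38-fold and 7.64-fold above neutrophil-like cells and at least 4.53-fold and 25.6-fold above B cell-like cells. Of all *Fabp4* UMIs in retained barcodes, monocyte-like cells held 56.1% and 19.6%. Alveolar fibroblasts held 4.67% and 26.6%, and barcodes over more than 1 gate 16.8% and 40.8%.

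Within the immune group, *Pparg* was counted mostly in monocyte-like cells. Monocyte-like cells held 10 of 13 and 24 of 44 immune *Pparg* UMIs, at 34.9 and 75.9 CPM, neutrophil-like cells none and B cell-like cells 0 and 1 UMIs. Neither difference passed the test (adjusted p = 0.057 against neutrophil-like and 0.053 against B cell-like cells). In that fit *Pparg*, like *Fabp4*, passed the count filter only through monocyte-like cells, so these values are no result about it.

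Barcodes with alveolar macrophage transcripts also carried *Pparg* and *Fabp4* in library 2. The 80 such barcodes held 80 of 310 *Pparg* UMIs (25.8%), and 42 of them (52.5%, exact 95% binomial interval 41.0% to 63.8%) had a *Pparg* UMI, against 2.17% of the others. They held 85 of 683 *Fabp4* UMIs (12.4%), with a UMI in 31 of 80 (38.8%) against 2.79% of the others, at the median depths given for *Fabp1*. The 3 such barcodes of library 1 had 1 *Pparg* and 0 *Fabp4* UMIs.

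*Cebpb* was highest in neutrophil-like cells, at 3435 and 4156 CPM, with monocyte-like cells at 1664 and 2734 CPM, C1q macrophage-like cells (*C1qa*, *C1qc*, *Pf4*) at 279 and 795 CPM, and B cell-like cells at 30.8 and 204 CPM. Neutrophil-like cells exceeded monocyte-like cells in both libraries (log2 fold change -0.94 ± 0.30 for monocyte-like minus neutrophil-like cells, adjusted p = 0.025), a call that was lost with DESeq2 (0.065), without the count filter (0.11) and without the library block (0.30). Monocyte-like cells exceeded B cell-like cells with a log2 fold change of 4.02 ± 0.39 (adjusted p = 7.8e-10). *Cebpa* was instead found in C1q macrophage-like cells (61.3 and 129 CPM), dendritic cell-like cells (127 and 53.9 CPM) and monocyte-like cells (31.4 and 50.6 CPM), and neutrophil-like cells held 1 and 0 UMIs. *Fabp5* stood at 76.7 and 171 CPM in monocyte-like and 90.7 and 240 CPM in neutrophil-like cells, both above B cell-like cells, which held 0 and 2 UMIs (adjusted p = 0.00083 and 0.0011). The call for monocyte-like cells was lost when other classes were kept free of stromal transcripts (adjusted p = 0.062).

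**Figure D3:**
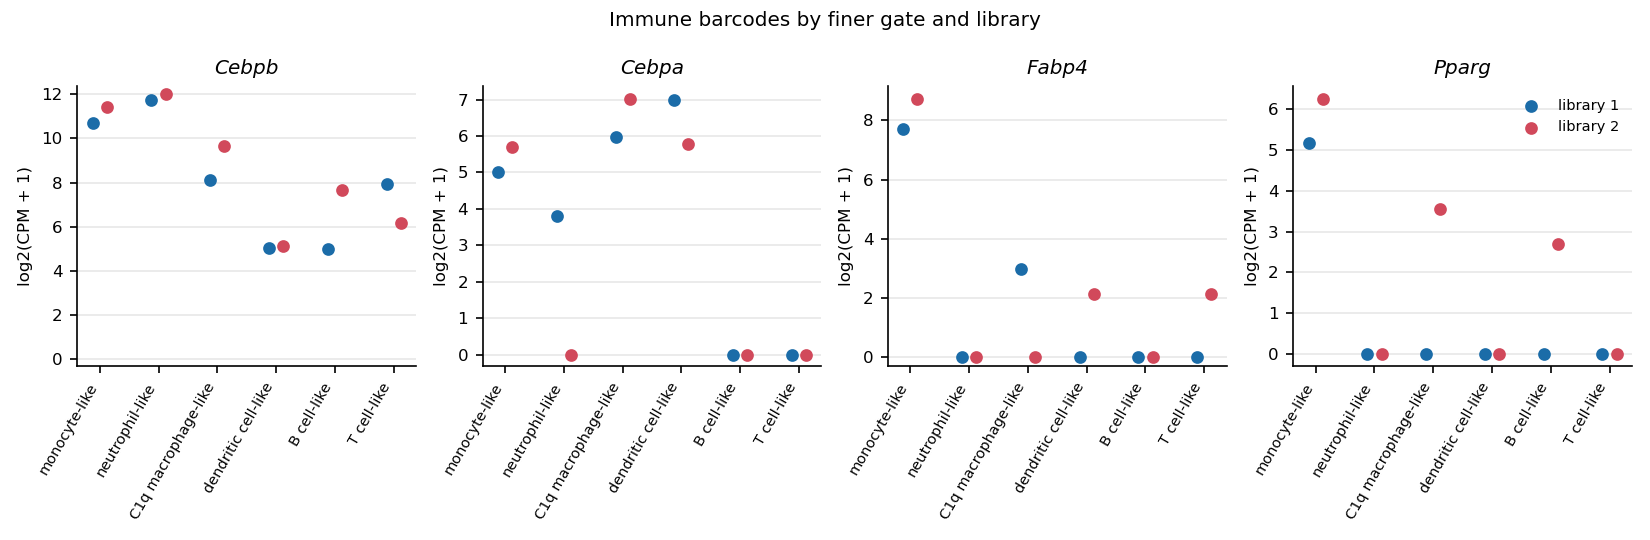
The x axis gives the finer immune groups, the y axis log2(CPM + 1) of 4 genes, and each point is 1 library. Among the plotted groups, *Fabp4* and *Pparg* peak in monocyte-like cells in both libraries, *Cebpb* in neutrophil-like cells at 3435 and 4156 CPM, and *Cebpa* is at 0 in B cell-like and T cell-like cells. Barcodes with alveolar macrophage transcripts are not plotted as a group.

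Barcodes over more than 1 gate carried a large part of several members' UMIs, above all in library 2. These barcodes were 4.36% and 16.4% of the retained ones, with a median of 10331 and 17378.5 UMIs against 4480 and 7577.5 over all. Since they were deeper, a share of a gene's UMIs above their share of barcodes does not by itself set that gene apart. They held 17.7% of *Fabp5*, 16.6% of *Cebpa* and 8.26% of *Ppargc1a* UMIs in library 1, and 62.2%, 58.2% and 58.5% in library 2. In barcodes with stromal and epithelial transcripts (187 and 123, at median depths of 12873 and 19778 UMIs), *Fabp5* was at 1836 and 794 CPM and *Cebpa* at 169 and 139 CPM, and *Cebpb* at 287 and 514 CPM. These 3 levels lay between those of alveolar fibroblasts and epithelial cells in both libraries. Barcodes with stromal and endothelial transcripts (86 and 931) had *Cebpb* at 512 and 556 CPM, *Cebpa* at 1.96 and 3.00 CPM and *Ppard* at 9.78 and 14.3 CPM. For *Fabp1*, 224 of its 494 UMIs in such barcodes of library 2 came with stromal and immune transcripts and 131 with epithelial and immune transcripts. Whether these barcodes held more than 1 cell was not tested.

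**Figure D4:**
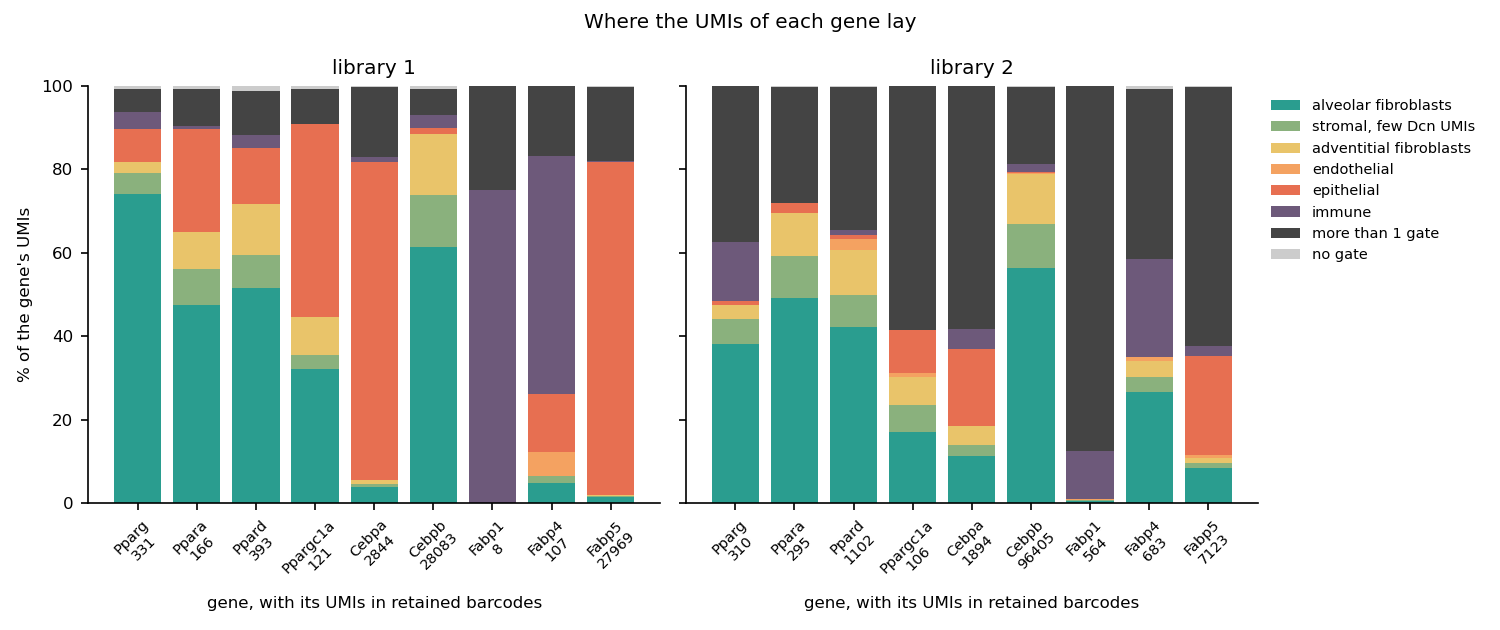
Stacked bars give the share of each gene's UMIs, in % on the y axis, by cell group, with 1 panel per library and the gene's UMI total under its name. Barcodes over more than 1 gate (dark grey) take 5.74% to 25.0% of a gene's UMIs in library 1 (lowest for *Pparg*, highest for *Fabp1*) and 18.6% to 87.6% in library 2 (lowest for *Cebpb*, highest for *Fabp1*). Such barcodes were deep, at a median of 10331 and 17378.5 UMIs against 4480 and 7577.5 over all retained barcodes.

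Related genes were counted from lists of the pathway. Of 7 further FABP genes 2 had enough counts, and *Fabp3*, the heart FABP, was higher in alveolar than in adventitial fibroblasts (78.6 and 67.1 CPM against 14.5 and 11.4 CPM; log2 fold change 2.47 ± 0.28, adjusted p = 8.3e-06). *Fabp12* was at 46.1 and 34.4 CPM in epithelial cells and at 0 in immune cells. Of 4 further C/EBP family genes 3 were tested, none of which was called between the fibroblast groups, and *Cebpd* was higher in alveolar fibroblasts (2701 and 2559 CPM) than in epithelial cells (248 and 252 CPM; 2.85 ± 0.22). Of 12 listed partners of the PPARs 11 were tested, among them *Rxra*, *Rxrb* and the NCOA and NCOR coregulators. None was called between the fibroblast groups, with a median log2 fold change of 0.12 beside 0.03 over all genes. The retinoid X receptor gene *Rxrg* had too few counts to be tested. It stood at 5.25 and 0.696 CPM in alveolar fibroblasts and 0.158 and 0.259 CPM in adventitial fibroblasts. *Nr1h3*, the oxysterol receptor LXRα, was higher in alveolar fibroblasts (117 and 84.1 CPM) than in immune cells (3.42 and 10.5 CPM).

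Of 27 listed PPAR target genes 20 were tested between the fibroblast groups, with 2 higher in alveolar fibroblasts, 3 higher in adventitial fibroblasts and 15 not called, where 8.71% of all genes were called, and a median log2 fold change of 0.04 beside 0.03 over all genes. The fatty acid transporter gene *Cd36* (1.51 ± 0.29, adjusted p = 0.0021) and *Angptl4*, an inhibitor of lipoprotein lipase (0.82 ± 0.21, adjusted p = 0.020), were higher in alveolar fibroblasts. *Angptl4* differed more between the libraries than between these groups, at 88.2 and 620 CPM in alveolar and 48.0 and 351 CPM in adventitial fibroblasts. The desaturase gene *Scd1* (-2.09 ± 0.28, adjusted p = 5.5e-05) and the lipoprotein lipase gene *Lpl* (-1.57 ± 0.41, adjusted p = 0.022) were among those higher in adventitial fibroblasts. The CPM of *Cd36* were 5.04 and 8.38 in alveolar fibroblasts against 1.58 and 2.94 in adventitial fibroblasts, far below the 1481 and 1998 of endothelial cells. Between alveolar fibroblasts and epithelial cells, 5 of the 20 were higher in the fibroblasts and 10 in epithelial cells, beside 51.1% of all genes called in either direction. In epithelial cells *Scd1* reached 3340.1 and 2783 CPM. Between epithelial and immune cells, 11 were higher in epithelial and 2 in immune cells, beside 24.7% and 23.3% of all genes, or 48.0% in either direction. Of 9 listed regulators of adipogenesis 7 were tested, with a median log2 fold change of -0.33 between the fibroblast groups. *Klf15* was higher in alveolar fibroblasts (41.7 and 141 against 16.3 and 66.2 CPM; 1.19 ± 0.19, adjusted p = 0.00031) and *Klf4* in adventitial fibroblasts (434 and 257 against 144 and 64.4 CPM; -1.80 ± 0.44, adjusted p = 0.013).

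The genes with the most similar profile were sought for the 4 members that reached 50 CPM in both libraries in a finer group, by Pearson's r of log2(CPM + 1) over 9 finer groups and 5016 genes. They were *Cdc42ep3* (0.96), *Brd7* (0.94) and *Eps8* (0.91) for *Cebpa*, *Tnfaip2* (0.96), *S100a6* (0.95) and *Zfand3* (0.94) for *Cebpb*, *Smpdl3a* and *Nxpe4* (0.93 each) for *Fabp4*, and *Il18r1* (0.92), *Tmem164* (0.91) and *Rbm47* (0.90) for *Fabp5*. The groups share libraries and differ in depth, so these values are a description.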

How the data were processed

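The submitters' processing notes name Cell Ranger 5.0.1 and mm10. The authors deposited filtered matrices of UMI counts per gene and barcode for 2 libraries, with no further normalization, and their later cell filters are not applied in them. All columns were mapped (0 left out). Total depth was 48762735 and 93970185 UMIs in 9669 and 10050 barcodes, of which 9634 and 9988 passed the filters, with no doublet caller beyond leaving out barcodes over more than 1 gate. UMIs were summed per group and library (10 sums) and divided by the sum's total for CPM. Sums were fitted with edgeR 4.0.16 (R 4.3.3; TMM, filterByExpr, quasi-likelihood test, library as block), with Benjamini-Hochberg adjustment over all 13326 genes (6898 in the finer fit) per pair, and an adjusted p under 0.05 was a call. The fit was checked on simulated counts. Alternatives included DESeq2 1.42.0, other gates, filters and scalings. Intervals are exact binomial (95%), and floors are 3 UMIs. Members and lists were chosen with earlier results of these data known. All 9 members are described, listed genes by their calls, with values for those called between the fibroblast groups and at most 4 per list elsewhere. Some genes that these rules name are not reported here.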

Additional observations from a re-analysis of the deposited data

Results flagged for a closer look

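In library 2, 4 members had most of their UMIs in barcodes outside the 5 groups that the comparisons used: 65.1% of the *Ppargc1a* UMIs, 60.8% for *Cebpa*, 87.8% for *Fabp1* and 63.5% for *Fabp5*. In library 1 the corresponding shares were 12.4%, 17.5%, 25.0% and 18.2%. The comparisons of these genes therefore rest on a smaller part of library 2 than of library 1.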

How the results depend on the processing

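Of 55 called member values, 30 lost the call under at least 1 alternative. The losses were 14 with DESeq2, 7 without the replicate block, 4 when other classes were kept free of stromal transcripts, 2 without the 10% deepest cells, 1 with gates of 5 UMIs, 1 without the count filter, none with DESeq2 size factors or a limit of 5% mitochondrial UMIs, and 22 when barcodes over more than 1 gate were added to each class, an alternative chosen after seeing the data. Each added barcode entered every class whose gate it passed. Except between the fibroblast groups, the sums of a pair could then share barcodes, which narrows their difference. A call lost in that alternative therefore does not show how firm the call was. Between alveolar and adventitial fibroblasts the count of 1 member became 0 with DESeq2, without the replicate block and with the added barcodes, and 2 without the filter. Between adventitial fibroblasts and endothelial cells the count of 4 fell to 2 with DESeq2 and without stromal transcripts, and to 1 with the added barcodes. The added barcodes also moved the count from 4 to 0 (alveolar fibroblasts and endothelial cells), from 6 to 2 (alveolar fibroblasts and immune cells), from 5 to 3 (endothelial and epithelial cells) and from 6 to 1 (endothelial and immune cells). Between monocyte-like and neutrophil-like cells 2 became 0 with DESeq2 and without the replicate block, and between monocyte-like and B cell-like cells 3 became 5 without the filter. Directions that turned with the added barcodes were *Cebpa* in alveolar (-0.28) and adventitial fibroblasts (-0.87) against endothelial cells, *Cebpb* in endothelial against epithelial cells (0.43) and *Fabp5* in endothelial against immune cells (0.30). Without replicate 2, *Ppara* in alveolar (-0.30) and adventitial fibroblasts (-0.77) and *Cebpa* in adventitial fibroblasts (-0.054) turned against endothelial cells, whose group then had no UMI of either gene; without replicate 1 these values were 3.79, 3.28 and 3.24. With 1 library left no test was possible. Causes were not tested. The planned pairs of alveolar macrophage-like and C1q macrophage-like, general capillary-like and aerocyte-like, and AT2-like and club-like cells were not run, since a group had under 20 cells in a library, and the 3 immune pairs were chosen in their place after seeing the data.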
